A study of Mus musculus with 31 samples.

Results

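App, Mapt, Sod1, Prnp, Apoe, Clu and Tardbp are 7 genes named for their part in neurodegenerative disease. They were chosen by symbol: every probe set (a group of short probes read out as 1 value) that the platform annotation pairs with exactly 1 of these symbols was taken. This gave 25 of the 45101 probe sets on the array and 7 of the 18193 genes with such a probe set. App and Mapt had 4 probe sets each, Sod1 5, Prnp 2, Apoe 1, Clu 4 and Tardbp 5.

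App encodes the amyloid precursor protein, a membrane protein whose cleavage releases amyloid beta, and Prnp the prion protein, a surface glycoprotein that can misfold into an infectious form. Mapt encodes tau, which binds microtubules in axons. Sod1 is the cytosolic copper-zinc superoxide dismutase, and Apoe and Clu (clusterin) are secreted carriers of lipid and misfolded protein, made in brain largely by astrocytes. Tardbp encodes TDP-43, a nuclear RNA-binding protein found in almost every cell type, which forms inclusions in amyotrophic lateral sclerosis and frontotemporal dementia.

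The study set natural against induced regulatory T cells (Treg), with conventional T cells beside them, and measured total RNA of mouse CD4+ T cells on 31 Affymetrix expression arrays. Cells were sorted from spleen and lymph nodes of Foxp3/EGFP bicistronic mice, in which the reporter marks cells that transcribe Foxp3, or of mice with the mutant allele Foxp3deltaEGFP. The labels give no strain or age. Induced Treg (5 arrays) were Foxp3-EGFP- cells of bicistronic mice given anti-CD3, anti-CD28 and TGF-beta for 3 days and then sorted for the reporter; failed induced Treg (3) came from the same cultures without the reporter. Induced Foxp3-delta cells (3) were Foxp3deltaEGFP- cells of mutant mice taken through the same induction and sorted for EGFP. Activated T cells (4) were conventional cells of bicistronic mice given anti-CD3 and anti-CD28 without TGF-beta, and activated natural Treg (3) were reporter-positive cells given both antibodies and TGF-beta. Natural Treg (4), natural Foxp3-delta cells (2, from heterozygous females) and conventional T cells (3, bicistronic mice) were not activated. IL-2 induced Treg (2) and IL-2 induced Foxp3-delta cells (2) were induced cells kept for 1 more week with interleukin 2 at 100 units per ml. The labels do not say that the samples of a group came from separate cultures or animals, so a p-value here reflects only how far these samples differ, and that spread may be technical. Precision is limited throughout by the small number of arrays per group.

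The values went against the labelled cell type. Deposited Foxp3 intensity ran from 7.62 to 17.0 over the 31 arrays, while the unspiked bacterial controls (27 probe sets) read 8.54 at their median and 14.3 at their 95th percentile. Of 12 T cell markers, 11 were measured, and their median percentile within an array averaged 27 (21.8 to 32.4 over the arrays). Cd3d read 8.52 to 21.9, Cd4 12.3 to 26.7 and Cd2 6.26 to 13.2. Zap70, a T cell receptor kinase, read 59.7 to 159.2 (66.6 percentile on average) and Cd3e 24.7 to 68.2 (48.2 percentile), both above the controls' 95th percentile on every array, and Lat had a median of 24.8. Markers of neurons, oligodendrocytes and astrocytes averaged the 99.3, 99.4 and 99.1 percentile, and on no array was the median of these lists below the 98.7 percentile. Microglial markers averaged the 81.4 percentile. Snap25, a synaptic protein of neurons, read 5806 to 19440, Mbp, a myelin protein, 12320 to 28370, and Gfap, an astrocyte filament protein, 2971 to 9995. The groups are therefore called by their labels below, with no statement that they hold T cells. In RNA of a whole sample, fewer cells of a type and less RNA per cell cannot be told apart.

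The arrays also fell into 3 sets by technical values: the array median, the 99th percentile and the cre hybridisation control relative to bioB. Array set 1 held 15 arrays, set 2 held 6 and set 3 held 10, with median intensities of 37.0 to 47.7, 40.8 to 55.4 and 22.2 to 37.4. Set 1 took in all arrays labelled natural Treg, conventional T and IL-2 cultured, and set 3 all those labelled activated natural Treg. The arrays were therefore quantile normalised, and values below are normalised intensities unless they are called deposited. Between arrays, correlations were 0.985 to 0.997 within label groups and 0.98 to 0.998 between them. No array was counted as a repeat of another.

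For 22 of the 25 probe sets the intensity lay above the table's median (39.81) on at least 2 arrays, and these 22 were tested. The 3 others, App 1438373_at, App 1438374_x_at and Sod1 1447761_x_at, stayed between 4.82 and 11.2 deposited units on every array, within the range of the unspiked controls. Each has a bright probe set of the same symbol beside it on the array, and no level was read from them. The intensity of a probe set also depends on its own probes, so levels are compared between arrays and not between probe sets.

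**Figure D1:**
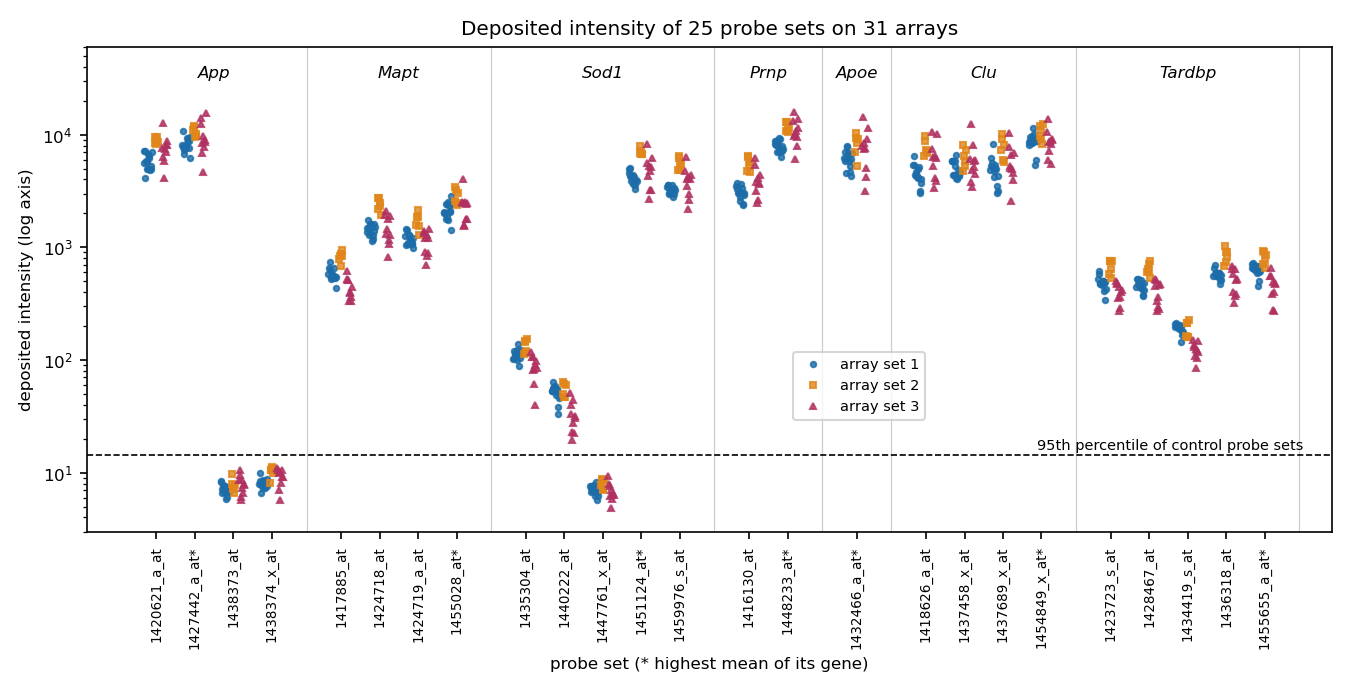
Deposited intensity (vertical log axis) of the 25 probe sets of the 7 genes (horizontal axis), 1 point per array, coloured by array set; the dashed line is the 95th percentile of unspiked control probe sets, 14.3. 22 probe sets lie above the line on every array and 3, of App and Sod1, lie below it on every array.

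The amyloid precursor App was bright on every array. Its leading probe set, meaning the one with the highest mean of its gene, 1427442_a_at, had a deposited intensity from 4645 (activated T 3) over a median of 8795 to 15610 (natural Foxp3-delta 2), and lay at the 99.7 percentile on average. After normalisation the range was 6909 to 11760. The highest group mean was 10760 ± 739 (SD, n = 2) for IL-2 induced Treg and the lowest 8071 ± 841 (n = 4) for activated T, 1.33 times apart and without overlap. No pair of neighbours in the order of the 10 group means was without overlap. The second bright probe set, 1420621_a_at, ranged from 5012 to 9368.

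The prion gene Prnp varied least among the leading probe sets. 1448233_at read 6104 to 15850 as deposited and 8486 (natural Treg 1) to 10610 (conventional T 3) after normalisation, with a coefficient of variation of 4.8% over the 31 arrays. Its group means ran from 9161 ± 566 (n = 4) for natural Treg to 9974 ± 402 (n = 4) for activated T, and even these groups overlapped. Its other probe set, 1416130_at, ranged from 3191 to 4760 with a coefficient of variation of 10.5%.

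The tau gene Mapt had 4 tested probe sets, and the leading one, 1455028_at, read 1430 to 4042 as deposited, at a mean percentile of 97.2. After normalisation the array labelled activated T 1 was lowest at 1771 and IL-2 induced Foxp3-delta 1 highest at 3384. Group means ran from 2089 ± 68.6 (n = 5) for induced Treg to 3163 ± 312 (n = 2) for IL-2 induced Foxp3-delta, 1.51 times apart. In the order of group means, the latter was the only group clear of its neighbour, conventional T. The other probe sets of Mapt ranged from 413.8 to 727.4 (1417885_at), 1251 to 2087 (1424718_at) and 944.5 to 1574 (1424719_a_at).

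The superoxide dismutase Sod1 had 4 tested probe sets. 1451124_at, the leading one, lay at the 99 percentile on average and ranged from 4112 to 5781. 1459976_s_at was the steadiest of the 25, from 3620 to 4191, with a coefficient of variation of 4%. The others, 1435304_at and 1440222_at, averaged the 65.2 and 51.9 percentile and ranged from 69.1 to 159 and from 31.4 to 55.7. For the leading probe set, the only neighbours in the order of group means without overlap were IL-2 induced Treg, at 4884 ± 113 (n = 2), over activated natural Treg, at 4420 ± 332 (n = 3).

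The lipid carrier Apoe had a single probe set, 1432466_a_at, at a mean percentile of 99.5. It ranged from 4338 (induced Foxp3-delta 2) to 9635 (natural Treg 3), a ratio of 2.22, the widest of the leading probe sets. Group means ran from 6094 ± 1650 (n = 3) for induced Foxp3-delta to 8741 ± 926 (n = 4) for natural Treg, and these groups overlapped. With 1 probe set, agreement within the gene could not be examined.

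The chaperone Clu had 4 tested probe sets, all with mean percentiles of 99.2 or more. The leading one, 1454849_x_at, ranged from 5945 (induced Foxp3-delta 3) to 11760 (natural Treg 3), and its group means from 7310 ± 1190 (n = 3) for induced Foxp3-delta to 11410 ± 494 (n = 3) for conventional T. 1437689_x_at spread most of the 25, from 3885 to 10130, and 1437458_x_at and 1418626_a_at ranged from 3799 to 7248 and from 4426 to 7442. The endings _x_at, _s_at and _a_at are Affymetrix's marks for probe sets with probes that can match more than 1 transcript.

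The RNA-binding gene Tardbp had 5 tested probe sets, and the leading one, 1455655_a_at, averaged the 88.6 percentile. It read 273.1 to 921.3 as deposited and 476.8 (activated natural Treg 1) to 690.9 (natural Treg 4) after normalisation. 1436318_at ranged from 525.5 to 707, and the 3 others from 373.6 to 553.3 (1423723_s_at), 417.6 to 568.9 (1428467_at) and 144.7 to 190 (1434419_s_at). Group means of the leading probe set ran from 544.7 ± 41.0 (n = 2) for IL-2 induced Treg to 656.8 ± 13 (n = 3) for failed induced Treg, and every neighbour in the order overlapped.

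**Figure D2:**
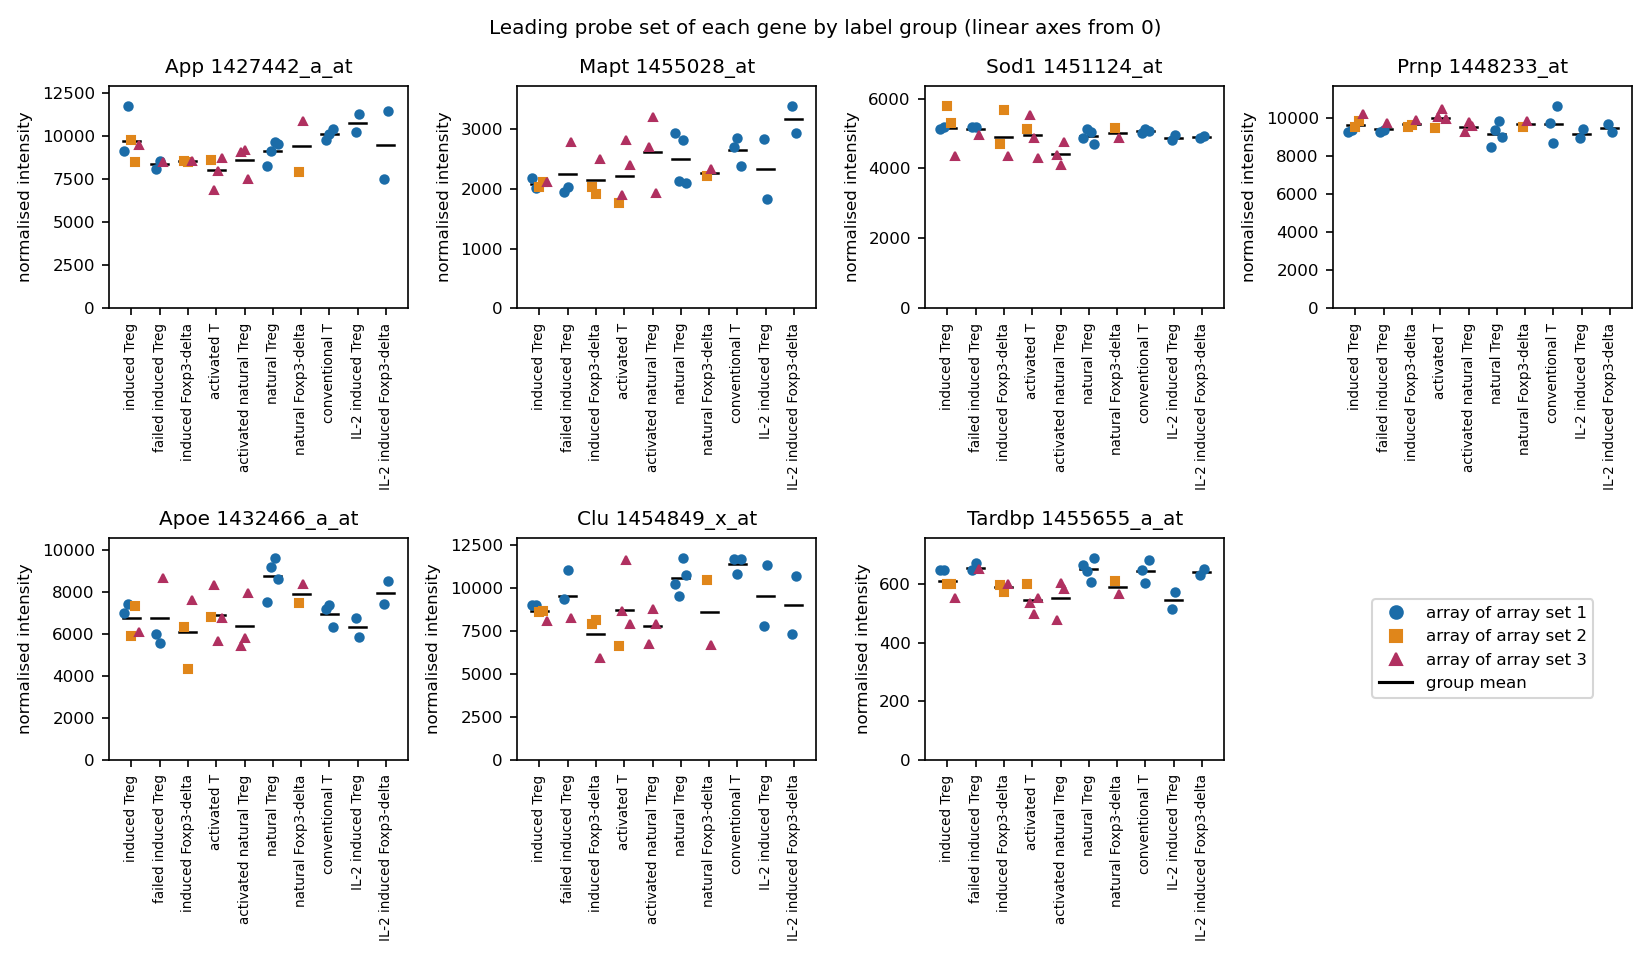
Normalised intensity (linear vertical axes from 0) of the leading probe set of each gene by label group (horizontal axis), 1 point per array coloured by array set, with a line at the group mean. Prnp spans 8486 to 10610 over all arrays, while Apoe spans 4338 to 9635.

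The question whether the probe sets of 1 gene rise and fall together was put to the 15 pairs of a leading probe set with another tested probe set of its gene, over all 31 arrays. They did not move together as a rule: Pearson's r had a median of 0.03, with 9 pairs above 0 and 6 below. Over all 9376 such pairs of the 5644 genes with several tested probe sets, the median was 0.00 with quartiles of -0.2 and 0.2, and 49.7% of pairs were below 0. Restricting these to the 3424 pairs that were bright left the median at 0.00. The members' median and spread are given beside these as a description, without a test.

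None of the 18 pairs, the 3 with a probe set at control level included, had an adjusted p under 0.05 (two-sided permutation test with 100000 resamples, Benjamini-Hochberg over the 18 pairs), and 4 tested pairs had an unadjusted p under 0.05. Prnp gave the highest r of 0.42 (Spearman's rho 0.40, permutation p = 0.0198 and 0.0246, adjusted 0.157 and 0.111), and 0.46 without the 2 arrays farthest from the median. Within the array sets it was 0.19, 0.28 and 0.51. Mapt 1455028_at with 1424718_at gave the lowest, -0.39 (rho -0.41, permutation p = 0.0329 and 0.0233, adjusted 0.157 and 0.111), -0.40 without 2 arrays and -0.33, -0.57 and -0.42 within the sets. These tau probe sets thus leaned opposite ways in each set, though the test was not passed after adjustment.

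Clu 1454849_x_at with 1437458_x_at gave r = 0.40 (rho 0.29, permutation p = 0.0279 and 0.112, adjusted 0.157 and 0.287) and 0.27 without 2 arrays. Within the sets it was -0.19, 0.56 and 0.50, so the sign differed in set 1. Tardbp 1455655_a_at with 1434419_s_at gave r = 0.38 (rho 0.46, permutation p = 0.0349 and 0.0097, adjusted 0.157 and 0.111) and 0.56 without 2 arrays. Within the sets the values were 0.80, 0.68 and -0.32, so r was positive in sets 1 and 2 and negative in set 3. The value in set 2 rests on 6 arrays (permutation p = 0.206). The remaining tested pairs lay between -0.32 (Mapt 1417885_at) and 0.21 (App 1420621_a_at).

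As deposited, all 15 pairs were positive, from 0.39 (Mapt 1417885_at) to 0.96 (Sod1 1459976_s_at), with a median of 0.60. The same step raised the median over all 9376 pairs to 0.76, so the members' median was not above that of all pairs there either. Single pairs differed: every Tardbp pair (0.86 to 0.93), Prnp (0.89) and Sod1 1459976_s_at (0.96) lay above the upper quartile of 0.85. The App, Mapt and Clu pairs and the other Sod1 pairs lay below it. As deposited, the arrays differ in overall level: activated T 3 was the lowest array for 17 of the 25 probe sets, and failed induced Treg 3 the highest for 10. With each array scaled to a common median in place of quantile normalisation, the members' median r was 0.53 and 2 pairs were below 0. This scaling leaves differences between arrays in the spread of bright values, and its part in that r was not tested.

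**Figure D3:**
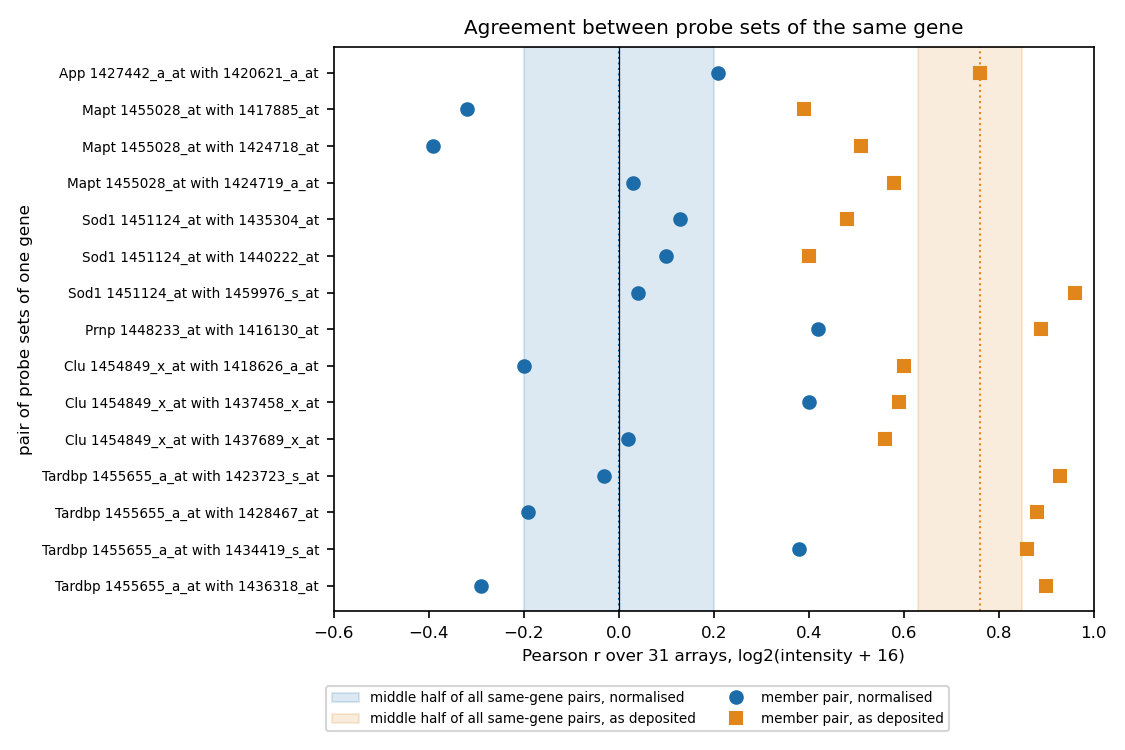
Pearson's r over 31 arrays (horizontal axis) for the 15 tested pairs of a leading probe set with another probe set of the same gene (rows), normalised (circles) and as deposited (squares); bands span the quartiles over all 9376 pairs of the array and dotted lines mark their medians. Normalised values lie between -0.39 and 0.42 around a median of 0.03, and deposited values between 0.39 and 0.96.

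Whether the members varied with the label at all was asked with limma's moderated F test over the 10 groups. 0 of 22 probe sets passed at an adjusted p under 0.05, against 3052 of all 24670 tested (12.4%), with 5 members at an unadjusted p under 0.05 (22.7%, against 29.8% of all). The smallest adjusted p was 0.0584 for Tardbp 1455655_a_at. The label group took a median of 42.3% of the variance of the members and 40.5% over all tested probe sets, and the array set 18.3% and 23.4%. These shares were not corrected for the number of classes. Splitting into 10 label groups takes up more variance than splitting into 3 array sets even in random values. The label and array set shares are therefore not compared with each other.

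In 13 comparisons of label groups, 2 of 286 tests of members were called by limma at an adjusted p under 0.05, both lower, and 30 had an unadjusted p under 0.05 (10.5%, against 13.6% over all probe sets in the same comparisons). The first was Tardbp 1455655_a_at, lower in activated natural Treg than in natural Treg. The second was Clu 1418626_a_at, lower in IL-2 induced Treg than in induced Treg. Over all probe sets the share called ran from 0% to 15.6% by comparison, and it is given for each comparison below. In the 3 interaction contrasts limma called 0 of 66 member tests, with 3 at an unadjusted p under 0.05 (4.55%, against 4.94% over all probe sets), and over all probe sets it called none either (0%).

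Tardbp 1455655_a_at read 476.8, 603.5 and 582.4 on the arrays labelled activated natural Treg 1 to 3. On natural Treg 1 to 4 it read 664.3, 643.8, 607.2 and 690.9. All 4 natural Treg arrays lay above the 3 activated ones, by a narrow gap between 603.5 and 607.2. The log2 difference was -0.23 (SE 0.08, 95% interval -0.39 to -0.07, limma adjusted p = 0.0416). It was the only one of 22 members called in that comparison, where 15.6% of all probe sets were called, so the members' share was below the background. For 5 of the 22 members these groups did not overlap, against 29.1% of all probe sets.

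The other probe sets of Tardbp did not fall with it. Their log2 differences in the same comparison were 0.14 (1423723_s_at), 0.13 (1428467_at), -0.06 (1434419_s_at) and 0.09 (1436318_at), and the smallest limma adjusted p among them was 0.182. For 1423723_s_at the groups did not overlap, in the direction opposite to the leading probe set. The mean of all 5 gave a difference of 0.01 (limma adjusted p = 0.848). Without activated natural Treg 1 the difference of 1455655_a_at was -0.13 (limma adjusted p = 0.288), and the call was also lost without natural Treg 1, 2 or 4 (0.0845, 0.0675 and 0.107).

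Array quality moved with this comparison. All natural Treg arrays were in array set 1 and all activated natural Treg arrays in set 3, so no set holds both groups. With the array set as a block, which draws on other groups, the difference was -0.10 (limma adjusted p = 0.743). The ratio of the 3 prime to the 5 prime actin probe set, a measure of RNA integrity, was 2.05 to 2.13 on activated natural Treg arrays and 1.73 to 1.84 on natural Treg arrays. With that ratio as a covariate the difference was -0.14 (limma adjusted p = 0.493). The summed level of the 11 T cell markers was 296.3 to 330.1 against 277.7 to 288, and that of the 8 neuron markers 50230 to 55870 against 51860 to 54480. Only 2 of the 11 T cell markers passed the intensity filter. Zap70 had the largest deposited median of them, 125.8, with Cd3e next at 30.59, so the sum leans on few probe sets. The part of the marker levels in the result was not tested.

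Clu 1418626_a_at read 4426 and 4453 on the arrays labelled IL-2 induced Treg 1 and 2. On induced Treg 1 to 5 it read 6145, 6800, 5270, 6012 and 5667. Both IL-2 arrays lay below all 5 others. The log2 difference was -0.42 (SE 0.11, 95% interval -0.65 to -0.2, limma adjusted p = 0.0464), and this was the only member called in the comparison, where 1.78% of all probe sets were called. The groups did not overlap for 6 of the 22 members and for 23.8% of all probe sets.

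Here too the gene's other probe sets differed. The leading one, 1454849_x_at, gave 0.12 (SE 0.19, limma adjusted p = 0.827) and 1437458_x_at 0.30 (SE 0.2, limma adjusted p = 0.488). 1437689_x_at gave -0.38 (SE 0.19, limma adjusted p = 0.323): it read 4408 and 4887 on the IL-2 arrays and 5410, 6650, 6098, 6283 and 5878 on the induced Treg arrays, without overlap. So 2 of the 4 probe sets were lower on both IL-2 arrays and 2 overlapped with higher means. The mean of all 4 gave -0.10 (limma adjusted p = 0.627).

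Both IL-2 arrays were in array set 1, with induced Treg 1 and 2. Within that set the difference of 1418626_a_at was -0.54 (limma adjusted p = 0.0111), and with the array set as a block it was -0.47 (0.0585). The call was lost in 17 of 31 fits that left out 1 array, with the largest adjusted p, 0.34, without IL-2 induced Treg 1 and a difference of -0.38 to -0.47 throughout. The actin ratio was 1.78 to 1.83 on the IL-2 arrays and 1.63 to 1.83 on the induced Treg arrays. Astrocytes are the main source of Clu in brain, and the summed level of 8 astrocyte markers was 44310 to 51350 against 42630 to 50430. The part of astrocyte RNA in the result was not tested.

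**Figure D4:**
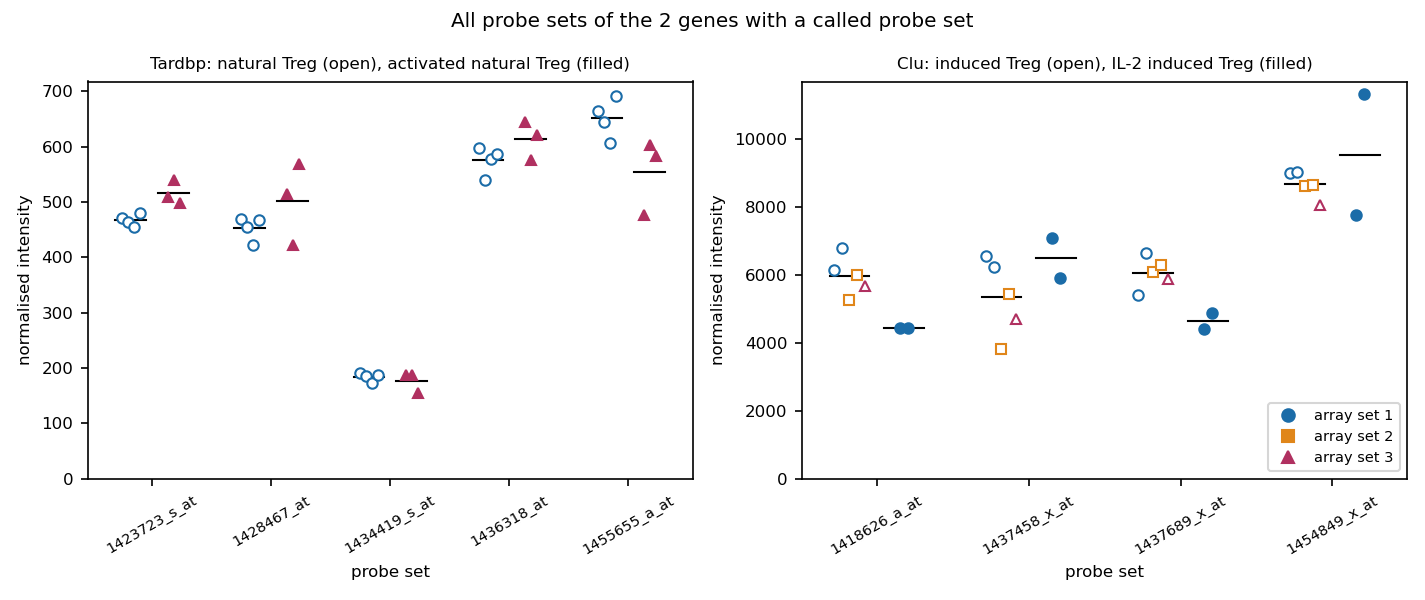
Normalised intensity (linear vertical axes from 0) of every tested probe set (horizontal axis) of Tardbp in natural Treg and activated natural Treg arrays and of Clu in induced Treg and IL-2 induced Treg arrays; open and filled points are the first and second group, colours the array sets, lines the group means. Tardbp 1455655_a_at is lower in the activated group (476.8 to 603.5 against 607.2 to 690.9) while 1423723_s_at is higher, and Clu 1418626_a_at is lower in the IL-2 group while 1437458_x_at overlaps.

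In the comparison of IL-2 induced Treg with induced Treg, Tardbp 1423723_s_at missed the threshold, with a log2 difference of -0.28 (SE 0.08, limma adjusted p = 0.05, which is not under the threshold). It read 463.4 and 373.6 on the IL-2 arrays and 505.8, 553.3, 492.8, 497.9 and 504.5 on the induced Treg arrays. The IL-2 arrays were lower without overlap, and all 5 Tardbp probe sets had a negative difference there, from -0.28 to -0.02. Without IL-2 induced Treg 2 the difference of 1423723_s_at was -0.14 (limma adjusted p = 0.677).

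Apoe missed the threshold in activated natural Treg against natural Treg. It read 5410, 5789 and 7938 on the activated arrays and 7500, 9210, 9635 and 8621 on the natural ones, and the groups overlapped by 1 activated array. The log2 difference was -0.47 (SE 0.17, limma adjusted p = 0.0581). With arrays scaled to a common median it was 0.40 (limma adjusted p = 0.387), so its direction turned with the scaling. Without activated natural Treg 3 it was -0.63 and passed (limma adjusted p = 0.0218). Clu 1454849_x_at read 6740, 8765 and 7874 against 10240, 9537, 11760 and 10750 in the same comparison, without overlap, with a difference of -0.44 (SE 0.17, limma adjusted p = 0.0774). The other Clu probe sets gave -0.40 (1437689_x_at, limma adjusted p = 0.112), -0.06 (1418626_a_at, 0.738) and 0.02 (1437458_x_at, 0.954), each with overlapping groups.

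The largest difference of any member was that of Mapt 1455028_at, 0.56 (SE 0.21, limma adjusted p = 0.181) between IL-2 induced Foxp3-delta and induced Foxp3-delta. It read 3384 and 2943 on the IL-2 arrays and 2039, 1911 and 2504 on the others, without overlap. The IL-2 arrays were in array set 1 and the induced Foxp3-delta arrays in sets 2 and 3, so no set holds both groups. Over all label groups, the mean log2 level of 1455028_at was 11.26, 10.98 and 11.26 in sets 1, 2 and 3. Groups did not overlap for 7 of the 22 members in that comparison and for 38.1% of all probe sets. The intervals of the 3 other tau probe sets all contained 0, at -0.56 to 0.15, -0.33 to 0.32 and -0.47 to 0.14. On the values as deposited the difference of 1455028_at was -0.03, so its direction turned with the scaling.

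App 1427442_a_at read 8641, 6909, 7996 and 8736 on activated T arrays and 9815, 10170 and 10440 on conventional T arrays, without overlap. Conventional T arrays were in array set 1 and activated T arrays in sets 2 and 3, so no set holds both groups. Over all label groups, its mean log2 level was 13.23, 13.08 and 13.08 in sets 1, 2 and 3. The log2 difference was -0.33 (SE 0.12, limma adjusted p = 0.0979), in a comparison where 6.17% of all probe sets and 0 of 22 members were called by limma (4 at an unadjusted p under 0.05). Groups did not overlap there for 3 of 22 members and 21.9% of all probe sets. The other App probe set gave -0.14 (SE 0.13). Arrays scaled to a common median turned the direction of 1427442_a_at, to 0.35.

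In natural Treg against conventional T, 0 of 22 members were called by limma and 0 had an unadjusted p under 0.05, while 1 of the 24670 probe sets was called (0.00405%). Apoe came nearest, with 0.33 and an interval of -0.02 to 0.67. Natural Foxp3-delta against conventional T gave 0 called and 2 at an unadjusted p under 0.05, where 0.15% and 14.9% of all probe sets passed these thresholds. Natural Treg against natural Foxp3-delta also gave 0 and 2, beside 0.0892% and 15.5% of all probe sets. Of these, Tardbp 1428467_at had the smallest adjusted p by limma, 0.208 and 0.206.

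Activated natural Treg against induced Treg gave 0 members called by limma and 3 at an unadjusted p under 0.05, while 5.57% and 22.9% of all probe sets passed these thresholds. Failed induced Treg against activated T gave 0 and 1 (0.0365% and 13.3% of all), and induced Treg against activated T 0 and 2 (0.0567% and 10.6%). Induced Treg against failed induced Treg gave 0 and 0, as did induced Treg against induced Foxp3-delta (0% called of all in each, with 4.46% and 3.04% at the unadjusted threshold). IL-2 induced Treg against IL-2 induced Foxp3-delta gave 0 and 2 (0% and 2.74%), and IL-2 induced Foxp3-delta against induced Foxp3-delta 0 and 4 (0.332% and 15.9%).

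How far a gene's probe sets pointed the same way can be read over the 13 comparisons, which share arrays. Both Prnp probe sets had 1 sign in 12 of the 13 and both App probe sets in 7. All 4 Mapt probe sets had 1 sign in 3, all 5 Tardbp probe sets in 1, and for Sod1 and Clu there was none. A gene with 2 probe sets can share a sign more easily than one with 5, so these counts do not rank the genes.

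**Figure D5:**
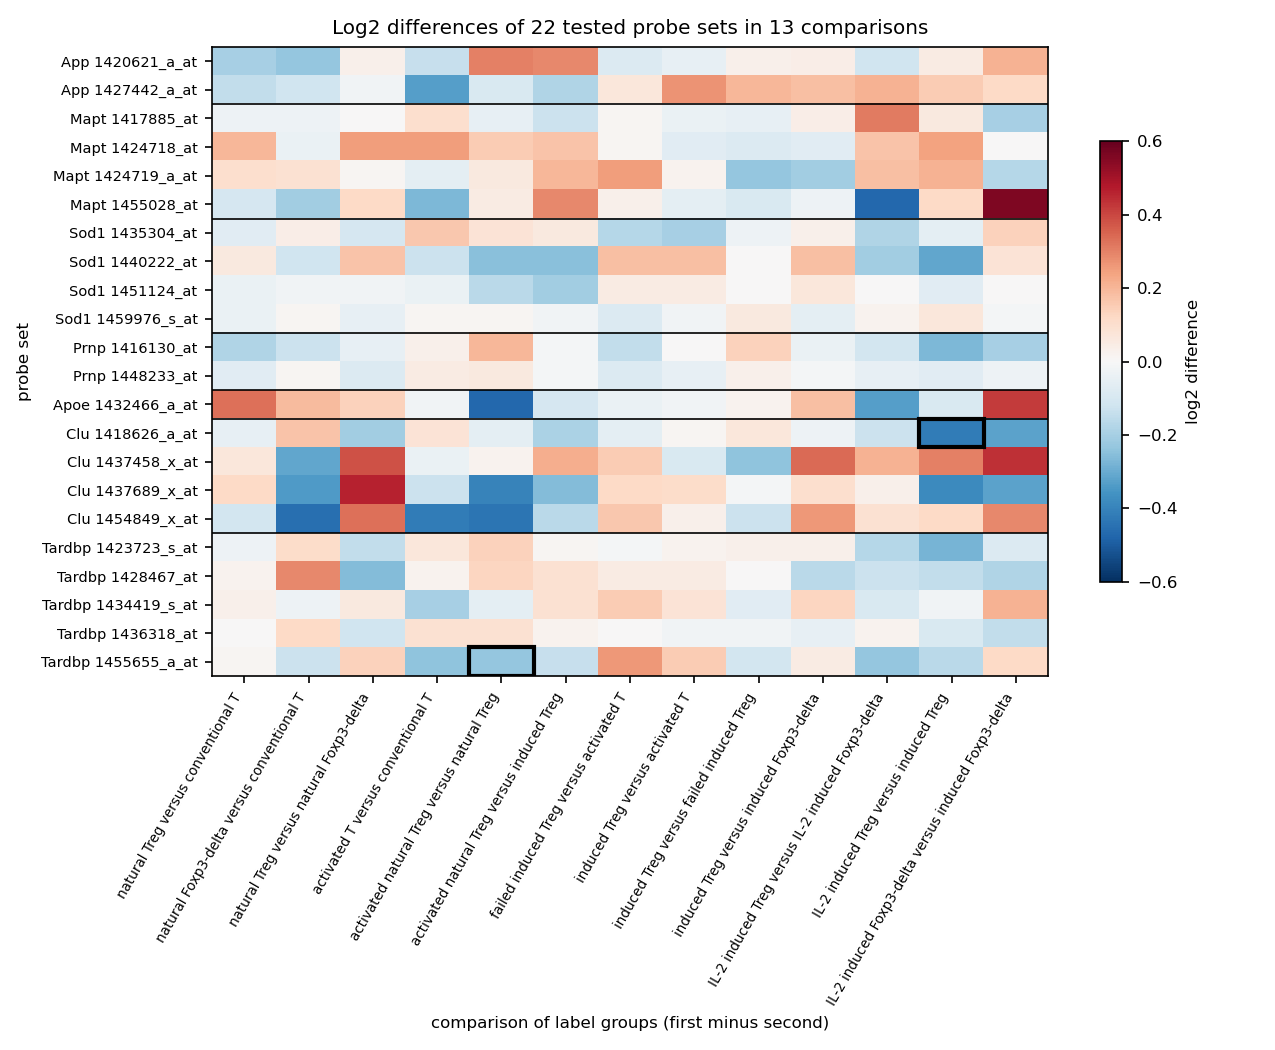
Log2 difference (colour, first group minus second) of the 22 tested probe sets (rows) in 13 comparisons of label groups (columns); black frames mark the 2 calls at a limma adjusted p under 0.05. Within the rows of Clu, Sod1 and Tardbp most columns hold both signs, and the largest difference is 0.56 for Mapt 1455028_at.

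Related genes were taken from 7 lists that cover amyloid processing, tau and microtubules, lipid carriers, antioxidants, RNA-binding and motor neuron disease genes, prion partners, and other Parkinson, Huntington and ataxia genes. Of 121 genes, 105 were matched and 104 tested, each by its leading probe set. In activated natural Treg against natural Treg, 8 were higher and 10 lower by limma (17.3%, background 15.6%). In activated T against conventional T, 1 was higher and 5 lower (5.77%, background 6.17%), and in activated natural Treg against induced Treg 3 were higher and 3 lower (5.77%, background 5.57%). The shares of the lists were thus near the background in each of these. Called in activated T against conventional T were Pink1 (higher) and Cdk5r1, Stmn1, Bin1, Fig4 and Tbk1 (lower). Called in activated natural Treg against induced Treg were Sncb, Pink1 and Atxn1 (higher) and Tbp, Taf15 and Ubqln2 (lower). Array set moved with both of the latter comparisons: conventional T lay in set 1, activated T in sets 2 and 3, activated natural Treg in set 3 and induced Treg in all 3. Of the 6 calls in activated T against conventional T, 0 were left by limma with a block for array set (3 at an unadjusted p under 0.05, and 20 calls over all probe sets). Under array medians 1 kept its direction and call, and 3 turned direction. Of the 6 in activated natural Treg against induced Treg, limma left 0 with that block (5 unadjusted, 171 over all) and 0 with the actin ratio as a covariate (3 unadjusted, 0 over all). Under array medians 3 were left, and on the values as deposited 3 turned direction.

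Of the amyloid list, 17 were tested and 3 passed in activated natural Treg against natural Treg. The gamma-secretase subunits Ncstn and Psenen fell by 0.31 and 0.23 on the log2 scale (limma adjusted p = 0.0196 and 0.0376), though Psenen gave 0.17 with arrays scaled to a common median. Ide, a peptidase that degrades amyloid beta, rose by 0.23 (limma adjusted p = 0.0388). Of 19 tau and microtubule genes, the kinases Gsk3a and Mark3 rose by 0.57 and 0.27 (0.0222 and 0.02), while Mark2 and Cdk5 fell by 0.39 and 0.23 (0.0107 and 0.0236), Cdk5 giving 0.15 under that scaling. The list's median was 0.05 against 0 over all probe sets.

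Of 14 lipid carrier genes, Apoc1, an apolipoprotein encoded beside Apoe, rose by 0.47 (limma adjusted p = 0.0376) in the same comparison and the 13 others did not pass. Of 12 antioxidant genes, Sod3, the extracellular superoxide dismutase, rose by 0.68 (0.016) and the peroxiredoxin Prdx2 fell by 0.22 (0.0268), with 0.46 under array medians. Of 19 RNA-binding and motor neuron disease genes, Taf15, Tbk1 and Ubqln2 fell, by 0.46, 0.30 and 0.29 (0.0127, 0.01 and 0.0168), and none rose, though Ubqln2 gave 0.30 under array medians. Of 7 prion relatives and partners none passed by limma (2 at an unadjusted p under 0.05). Of 16 other disease genes, 3 rose and 2 fell: beta-synuclein Sncb by 0.67, the mitochondrial kinase Pink1 by 0.56 and Atxn1 by 0.48 upward (0.00404, 0.00205 and 0.00162), and Lrrk2 by -0.43 (0.0187) among the lower ones. On the values as deposited, where the median of all probe sets was also below 0, Ide, Mark3, Apoc1 and Atxn1 gave -0.23, -0.29, -0.19 and -0.14. Actin ratio and array set moved with this comparison: a block for array set left 0 of the 17 genes named here called by limma (4 at an unadjusted p under 0.05), and the actin ratio as a covariate also left 0 (10 unadjusted), where all probe sets gave 49 and 124 calls in place of 3846.

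In IL-2 induced Treg against induced Treg, 2 list genes passed (1.92%, background 1.78%). Hnrnpa2b1, an RNA-binding protein of the hnRNP family, rose by 0.30 (SE 0.06, limma adjusted p = 0.0126) but gave -0.17 with arrays scaled to a common median, and Grb2, a signalling adaptor, fell by 0.44 (SE 0.11, 0.0348). With the array set as a block Hnrnpa2b1 kept the call (0.25, limma adjusted p = 0.0388) and Grb2 did not (-0.29, 0.18). In induced Treg against activated T, 1 of 104 passed (0.962%, background 0.0567%): Cdk5r1, the activator of the tau kinase Cdk5, was higher by 1.01 (SE 0.17, limma adjusted p = 0.0192). With a block for array set the difference was 0.96 (limma adjusted p = 0.0667), and with the actin ratio as a covariate 0.95 (0.0684). Neither of these fits kept the call, and they called 9 and 1 of all probe sets. Under array medians Cdk5r1 gave 0.99 (limma adjusted p = 0.0292). As deposited, where all probe sets shifted by 0.45, it gave 1.53 (0.00209). Failed induced Treg exceeded activated T by a similar 0.96 (limma adjusted p = 0.0656, not called). Activated T was also lower than conventional T, by 0.70 (limma adjusted p = 0.0313), a call lost with the array set block.

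Genes outside the 7 whose levels followed a leading probe set most closely were ranked by Pearson's r over the 31 arrays. For Tardbp 1455655_a_at they were Cyth1, Ankrd10 and Spag9 (r = 0.823, 0.814 and 0.811), for Sod1 Slc16a6, Il15ra and Aarsd1 (0.771, 0.756 and 0.733) and for Clu Cenpx, Atf6 and Stmn1 (0.755, 0.753 and 0.748). App was followed by Kctd1, Txn2 and Ipo4 (0.707, 0.694 and 0.646), Prnp by C1qb, Fdft1 and Msrb1 (0.689, 0.689 and 0.673) and Mapt by Syncrip, Slc19a1 and Ccdc177 (0.674, 0.673 and 0.667). For Apoe the values were lowest: Rspry1, Tox2 and Mrpl15 (0.654, 0.612 and 0.611). These are the top of a ranking over the tested probe sets with a single symbol, given without a test. The 7 members and provisional gene names (such as those ending in Rik) were left out, and each gene was counted once. The arrays share label groups and array sets. Within array sets 1 and 3, Clu correlated at 0.09 and 0.85 with Cenpx, 0.23 and 0.86 with Atf6, and 0.72 and 0.49 with Stmn1. Sod1 gave 0.21 and 0.75 with Slc16a6, 0.5 and 0.74 with Il15ra, and 0.22 and 0.67 with Aarsd1. Tardbp gave 0.71 and 0.78 with Cyth1, 0.80 and 0.80 with Ankrd10, and 0.83 and 0.58 with Spag9. Between the leading probe sets of the 7 genes, r ran from -0.43 (Mapt with Sod1) to 0.40 (Clu with Tardbp).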

How the data were processed

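Total RNA was prepared with Trizol and RNeasy columns and labelled as biotinylated cRNA by the Affymetrix protocol, per the labels' protocols. The authors deposited 1 table of probe set intensity on a linear scale. Summarisation, background correction and scaling are not given in the sources used here. Probe sets were named from the platform annotation: 34945 carried 1 symbol, 932 several (not named) and 9160 none listed. 64 control probe sets were left out.

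Arrays were quantile normalised and analysed as log2(intensity + 16), so differences understate the change of dim probe sets. Probe sets above 39.81 on at least 2 arrays (24670) were fitted in R 4.3.3 by the lmFit and eBayes functions of limma 3.58.1 (1 mean per label group, all 31 arrays), with Benjamini-Hochberg adjustment over all of them and a threshold of 0.05. The fit was checked on simulated data. Array sets come from Ward clustering. The labels give no batch. Alternatives covered scaling, pseudocounts of 1 and 64, the filter, 1 value per gene, array set, replicate number, groups compared and each array left out; the actin ratio, array medians for agreement and removal of set or group means were added after seeing the data. Agreement was tested by permutation. Named were the leading probe set of each gene, every called probe set, the 3 genes most like each leading probe set, and up to 4 called genes per list. Probe sets just short of the threshold were named after their values were seen. Members and lists were chosen with earlier results of these data known. Sequences of the probes were not used here.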

Additional observations from a re-analysis of the deposited data

Results flagged for a closer look

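In 66 groups of 4 or 5 arrays (22 probe sets in 3 label groups), 2 had an array far from the others by Dixon's criterion, which chance gives in about 1 in 20 groups. Sod1 1440222_at read 52.42 on natural Treg 1, against 48.82 to 48.92 on the other natural Treg arrays. Tardbp 1423723_s_at read 553.3 on induced Treg 2, against 492.8 to 505.8 on the other induced Treg arrays.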

How the results depend on the processing

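Under other settings, 202 counts, agreement values and mean percentiles stayed near the main ones and 32 moved. A count that was 0 in both settings was taken as near, also where few or no probe sets were called at all. The tally is therefore no measure of how firm the calls are. On values as deposited, where the median of all probe sets shifted by -0.39 (activated T against conventional T), -0.53 (activated natural Treg against natural Treg), -0.64 (activated natural Treg against induced Treg) and 0.45 (induced Treg against activated T), the counts in these comparisons were 2, 6, 14 and 8 of 22 members, where 23.7%, 62.9%, 86.3% and 62.6% of all probe sets were called, with 0 (0%) in IL-2 induced Treg against induced Treg and 10 (53.7%) in the F test. Scaling to array medians gave 10 and 10 in the first and second of these (26.8% and 20.7% of all), 5 in natural Treg against natural Foxp3-delta (7.71%) and 12 in the F test (27.9%), with shifts of 0.12, 0.06 and -0.1. In IL-2 induced Treg against induced Treg the count was 0 with a pseudocount of 1 (1.73% of all probe sets called). It was also 0 of 7 members with 1 probe set per gene (2.18% of all) and with the mean of probe sets (1.29%). The array set block (1.3%) and only the groups compared (0.0892%) gave 0 as well. It was 2 with a pseudocount of 64 (2.04%) and within array set 1 (1.85%). In activated natural Treg against natural Treg it was 2 without the filter (9.74% of all) and 0 with the mean of probe sets (15.5%). It was also 0 with the array set block (0.199%) or the actin ratio (0.503%), where few probe sets were called at all. Activated natural Treg against induced Treg gave 1 without the filter (3.51% of all), and the F test 1 with a pseudocount of 64 (12.8%) or the actin ratio (7.3%).

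The replicate numbers did not pair the arrays: same-numbered arrays of different groups had a mean correlation of 0.017 (-0.3 to 0.39) over 114 pairs, and 11 of 31 arrays correlated best with their own number. With the replicate block the counts were 0, 1 and 0 in activated natural Treg against natural Treg, against induced Treg, and in IL-2 induced Treg against induced Treg. Of all probe sets, 17.6%, 10.5% and 0.58% were called there. Tardbp 1455655_a_at gave -0.23 (limma adjusted p = 0.057) and Clu 1418626_a_at -0.45 (0.0996).

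Leaving out each array in turn gave 0 to 2 calls in activated natural Treg against natural Treg and in IL-2 induced Treg against induced Treg, and 0 to 1 in activated T against conventional T, activated natural Treg against induced Treg and the F test; all other counts stayed 0. Agreement had a median r of 0.00 to 0.08 with 5 to 8 pairs below 0.

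Directions turned for Mapt 1455028_at (-0.03, as deposited) and, under array medians, for App 1427442_a_at (0.35) and Apoe (0.4). The mean of all Tardbp probe sets gave 0.01 in activated natural Treg against natural Treg, where 1455655_a_at alone was lower. Over the alternatives for Clu 1418626_a_at the limma adjusted p ran from 0.0111 to 0.627. The value of 0.627 belongs to the mean of all Clu probe sets and not to that probe set alone. Agreement moved to a median r of 0.6 as deposited (0 pairs below 0), 0.53 under array medians (2 below 0) and -0.29 within array set 2. The r of Mapt 1424718_at turned to 0.51 as deposited and 0.43 under array medians, that of Clu 1437458_x_at to -0.19 within set 1, and that of Tardbp 1434419_s_at to -0.04 under array medians and -0.32 within set 3. The cause of these changes was not tested. Signal over background limits the reading of the 3 probe sets at control level, which entered the tests of label groups only where the filter was dropped.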
